A study of Carica papaya with 12 samples.

Results

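The genes described here are 69 papaya (Carica papaya) genes whose transcripts were several times more abundant in every library of female flower buds than in any library of male or hermaphrodite buds, at both bud sizes measured. They were chosen by their CPM, which is a gene's read count divided by the total of its library and scaled to 1000000. With 0.5 added to each value, the lowest of the 4 female libraries had to reach 2 and had to be at least 3 times the highest of the 8 male and hermaphrodite libraries. A gene was to be dropped if its lowest female value at 7–12 mm was 2 or more times its highest female value at 1–6 mm, and the 83 genes that the study lists in its main tables were left out. Neither clause removed a gene, and 69 of 27689 genes were kept (0.249%). Because these values chose the members, the female levels, the excess over the other sexes and the female size change are given below as descriptions without tests.

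RNA was sequenced from flower buds of 3 sexes and 2 size classes, 7–12 mm (after meiosis, per the labels) and 1–6 mm (before meiosis), and each of the 6 combinations had 2 libraries. The cultivar was 'AU9' for females and males and 'SunUp' for hermaphrodites. A difference between hermaphrodites and another sex therefore cannot be told apart from a difference of cultivar. Whole buds were used, which hold sepals, petals and reproductive organs together. Fewer cells of a type and less RNA per cell therefore cannot be told apart. Replicate 1 of every group was a single-end HiSeq2000 library of 12704714 to 16564137 counts and replicate 2 a paired-end HiSeq2500 library of 4520811 to 8554135 counts, so the replicate number is also the sequencing batch. The study calls its replicates biological, but the sources used here do not say that they came from separate plants, and p-values measure only the spread between these libraries. Except where a block is named, the tests below held no term for the replicate number, so the batch difference is part of that spread.

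Papaya plants are female, male or hermaphrodite according to a pair of sex chromosomes, with females carrying the X chromosome alone. Female flowers form a large pistil, in which the carpels enclose the ovules, and no stamens. Male flowers form stamens around a rudimentary pistil that bears no fruit, and hermaphrodite flowers form stamens together with a functional pistil. The counts carry gene IDs without names, and none of the IDs occurs in the RefSeq gene table used here, so the members are described by ID, position, structure and level, and no function is given to them.

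Summed over the 69 members, female buds had 15468 and 16882 CPM at 7–12 mm and 23920 and 22078 CPM at 1–6 mm (replicates 1 and 2). The sum was 2051 and 2340 CPM in male buds of 7–12 mm and 2307 and 2286 CPM in male buds of 1–6 mm. In hermaphrodite buds it was 2233 and 1999 CPM at 7–12 mm and 2367 and 2419 CPM at 1–6 mm. The ranges of the 4 hermaphrodite and the 4 male libraries overlapped, and the rule itself kept both far below females. The members took 1.55 to 2.39% of all counts in female libraries and 0.1999 to 0.242% in the other 8. The mean over female libraries was 4.49 to 77.2 times the mean over the other libraries (median 12.5 times), and it was 10 or more times in 41 members and under 5 times in 1.

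The excess was seen within each sequencing batch. In all 69 members the lowest female value was over 3 times the highest other value among the 6 libraries of replicate 1 and again among the 6 of replicate 2. The smallest ratio was 3.12 in replicate 1 and 3.18 in replicate 2. These are the same libraries that chose the members, so the values describe the choice and do not test it.

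**Figure D1:**
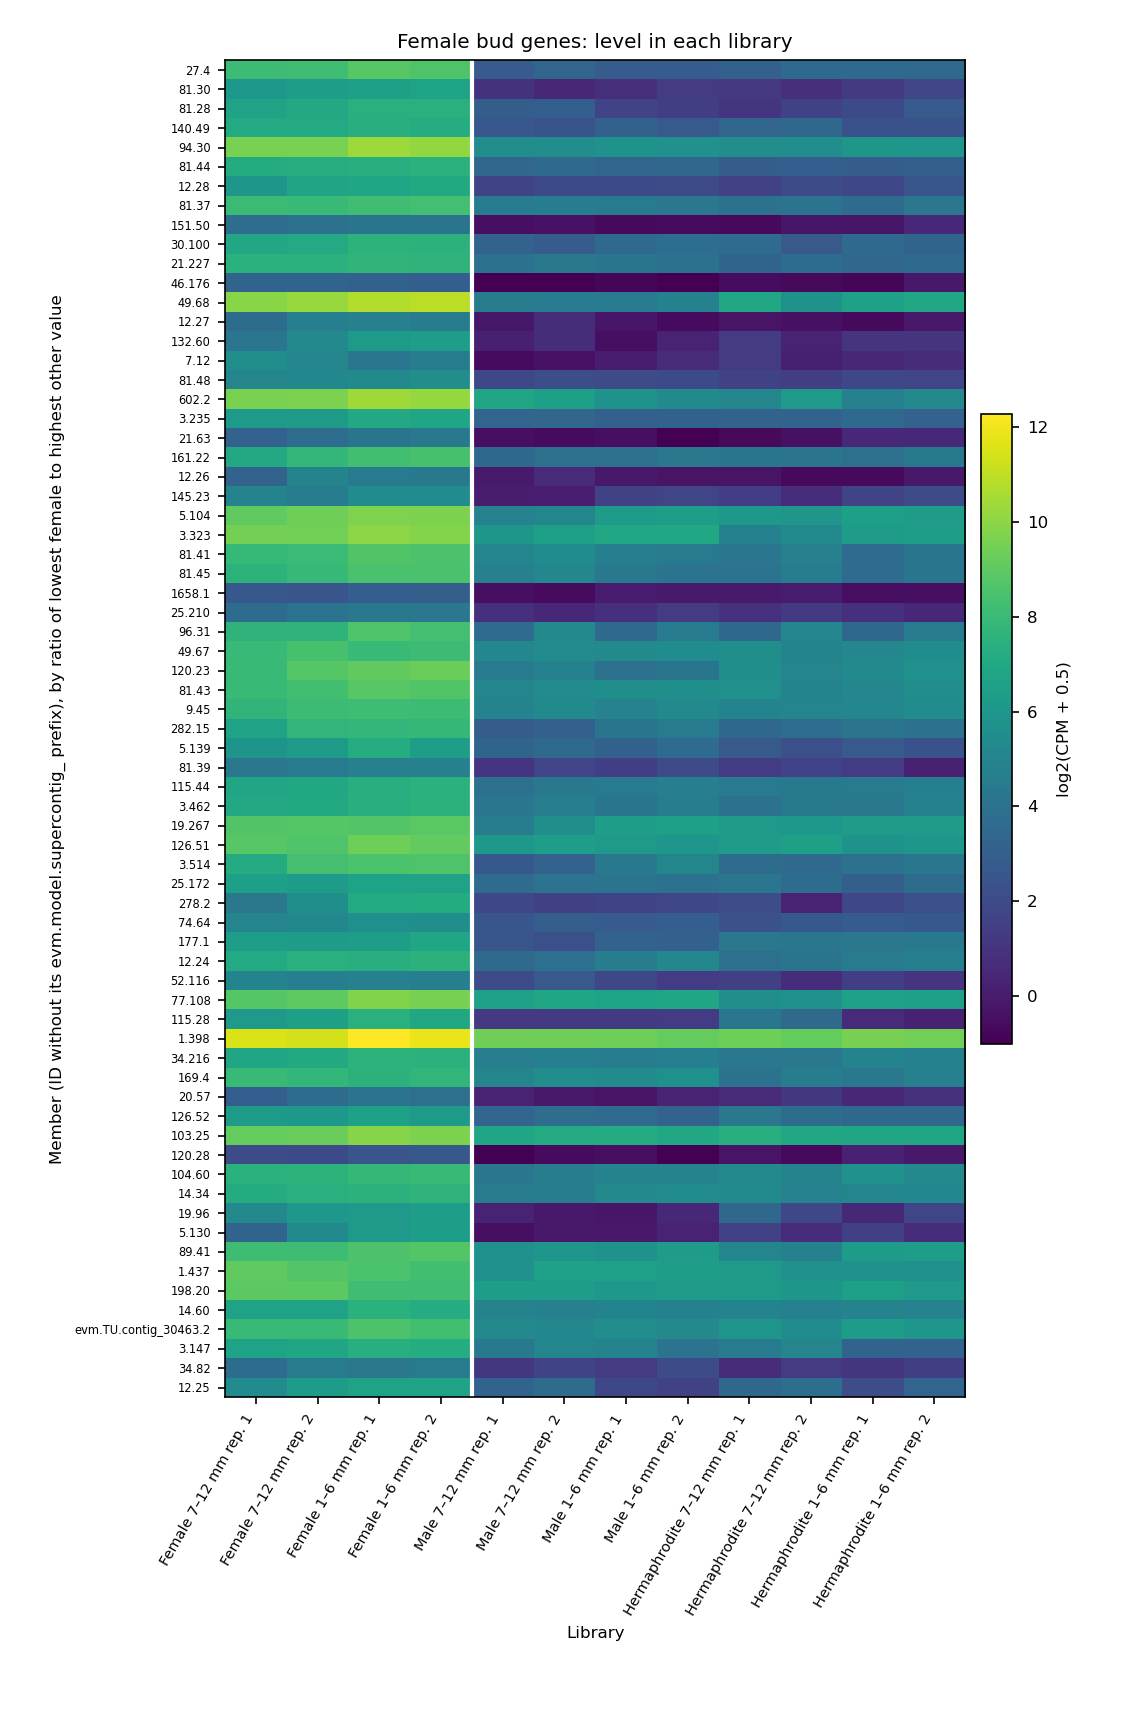
Level of each of the 69 members (rows, ordered by the ratio of lowest female to highest other value) in each of the 12 libraries (columns), as log2(CPM + 0.5), with the white line parting female libraries from the rest. Every row is brighter in the 4 female columns than in the other 8, and the brightest row is that of evm.model.supercontig_1.398.

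The ratio of the lowest female to the highest other value ran from 3.01 to 22.8 with a median of 4.68. It was largest in evm.model.supercontig_27.4, which had 278 and 292 CPM in female buds of 7–12 mm and 450 and 394 CPM in female buds of 1–6 mm, against 6.52, 8.72 and 11.7 CPM (lowest, median and highest) in the other 8 libraries. The female libraries lay far above all others. Male and hermaphrodite libraries overlapped at 7–12 mm but not at 1–6 mm. Male buds of 1–6 mm had 6.52 and 6.67 CPM, against 10.97 and 11.7 CPM in hermaphrodite buds of that size. The log2 fold change there was -0.87 ± 0.214 (SE, adjusted p = 0.0303, edgeR), which is below the 2-fold limit of the calls described below. The following ratios were 19.9 in evm.model.supercontig_81.30, 12.8 in evm.model.supercontig_81.28, 12.6 in evm.model.supercontig_140.49, 11.7 in evm.model.supercontig_94.30, 11.6 in evm.model.supercontig_81.44, 11.2 in evm.model.supercontig_12.28 and 10.7 in evm.model.supercontig_81.37. Of these 8 genes, 5 lie in the runs of neighbouring members described below.

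Just inside the threshold stood evm.model.supercontig_12.25 with a ratio of 3.01, evm.model.supercontig_34.82 with 3.07 and evm.model.supercontig_3.147 with 3.10. Just outside stood evm.model.supercontig_12.177 with 2.997 (329 CPM in its lowest female library against 109 CPM in its highest other library), evm.model.supercontig_62.11 with 2.91 and evm.model.supercontig_7.163 with 2.90. The edge of the group is therefore not a gap. The lowest female value that set the ratio came from a 7–12 mm library in 63 members, and from replicate 1 of that size in 47. The highest other value came from a hermaphrodite library in 40 members and from a male library in 29, and each of the 8 libraries supplied it for 1 to 15 members.

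**Figure D2:**
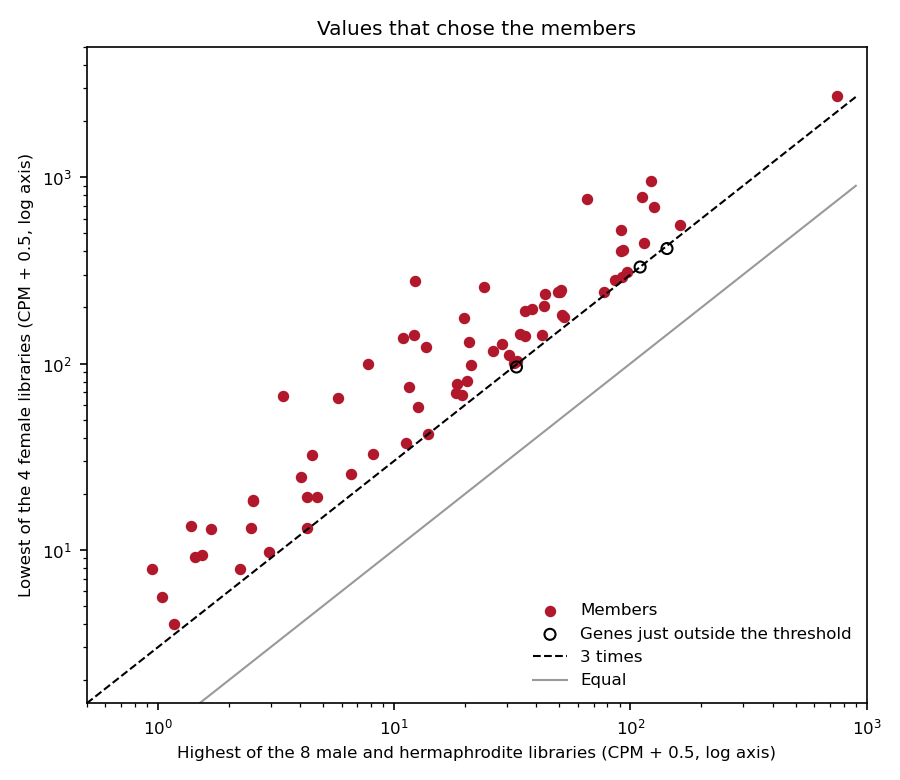
Highest value among the 8 male and hermaphrodite libraries (horizontal) against lowest value among the 4 female libraries (vertical), both as CPM + 0.5 on log axes, for the 69 members and the 3 genes just outside the threshold. Members lie along and above the broken line of 3 times at low and high levels, and the farthest above it reaches 22.8 times.

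Female levels differed widely between members. The female mean was 4.47 to 3579 CPM (median 152 CPM), at 100 CPM or more in 42 members and under 20 CPM in 8. The highest was evm.model.supercontig_1.398 (scf7180000009203:1705213-1707775 of the PacBio papaya assembly, plus strand, 2 exons), with 2912 and 2720 CPM in female buds of 7–12 mm and 4944 and 3740 CPM in female buds of 1–6 mm, against 562, 665 and 748 CPM (lowest, median and highest) in the other libraries. It was the most abundant member in every one of the 12 libraries, and supplied 16.1 to 20.7% of the members' sum in female libraries and 24.6 to 33.3% in the others. Without it, the members' female mean sum was 10.02 times that of the other sexes in place of 8.70 times.

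The next in level was evm.model.supercontig_49.68 (scf7180000007817:653835-656477, plus strand, 10 exons), with 952 and 1206 CPM in female buds of 7–12 mm and 1716 and 1892 CPM in female buds of 1–6 mm, against 22.5, 41.3 and 122 CPM in the other libraries. The single-exon gene evm.model.supercontig_602.2 (scf7180000008687:210636-212601, minus strand) had 779 and 792 CPM in female buds of 7–12 mm and 1352 and 1159 CPM in female buds of 1–6 mm, against 27.9, 46.0 and 111 CPM. Both were at least 6.98 times higher in the lowest female library than in the highest other one. For evm.model.supercontig_94.30 (scf7180000009196:155625-157117, minus strand, 4 exons) the female values were 785 and 766 CPM at 7–12 mm and 1288 and 1108 CPM at 1–6 mm, against 44.3, 49.0 and 64.8 CPM elsewhere. For evm.model.supercontig_3.323 (scf7180000008802:741694-742732, plus strand, 2 exons) they were 732 and 692 CPM at 7–12 mm and 993 and 913 CPM at 1–6 mm, against 27.7, 82.0 and 126 CPM elsewhere. These 5 genes held 40.1% of the members' summed female mean.

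Set per 1000 bases of coding sequence, the female mean level was 4.34 to 1840 CPM per kb with a median of 232.9, and the mean level in the other libraries was 0.0561 to 336 CPM per kb with a median of 21.9. The models hold coding sequence alone and some are short, so these levels compare genes only roughly. The highest level per kb was also that of evm.model.supercontig_1.398, at 1840. It was followed by evm.model.supercontig_89.41, a coding model of 245 bases, at 1389 CPM per kb, evm.model.supercontig_3.323 at 1302, evm.model.supercontig_49.68 at 1265 and evm.model.supercontig_126.51 at 1082. The lowest level was that of evm.model.supercontig_46.176, a single-exon model of 1954 bases.

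At the low end, no member was without counts in all male and hermaphrodite libraries. The largest fold of means, 77.2 times, was that of evm.model.supercontig_46.176, with 9.15 and 9.15 CPM in female buds of 7–12 mm and 8.22 and 7.36 CPM in female buds of 1–6 mm, against 8 counts in all in the other 8 libraries. Its 4 female libraries lay within a narrow range, and 3 of the others had no count. There were 3 members with no count in at least 1 male or hermaphrodite library and 19 with under 10 counts in at least 1 of them, and for these the size of the excess rests on few reads.

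Most members were lower in larger female buds. Both 7–12 mm libraries lay below both 1–6 mm libraries in 55 of 69 members, against 18.0% of the 16263 genes whose female libraries all reached the rule's minimum, and both lay above in 5 members, against 37.4% of those genes. The median ratio of the 7–12 mm to the 1–6 mm female mean was 0.698 among members and 1.08 among those genes. The rule bears on this pattern, since it capped rises with size (a cap that removed no gene) and limited falls through its lowest female value, which came from a 7–12 mm library in 63 members. The largest fall was in evm.model.supercontig_278.2, with 18.78 and 48.9 CPM at 7–12 mm against 137 and 141 CPM at 1–6 mm, a ratio of 0.243. It was followed by evm.model.supercontig_5.130 with 9.22 and 40.6 CPM at 7–12 mm against 72.0 and 82.2 CPM at 1–6 mm, and by evm.model.supercontig_132.60 with 18.0 and 37.5 CPM at 7–12 mm against 73.9 and 84.8 CPM at 1–6 mm. In these 3 genes the replicates of 7–12 mm differed by over 2 times, replicate 1 being the lower in each, so the size of the fall is loosely fixed.

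The 5 members with both 7–12 mm libraries higher were evm.model.supercontig_7.12, evm.model.supercontig_198.20, evm.model.supercontig_1.437, evm.model.supercontig_169.4 and evm.model.supercontig_46.176. In evm.model.supercontig_7.12 female buds of 7–12 mm had 46.0 and 32.97 CPM, against 17.9 and 24.4 CPM at 1–6 mm, a ratio of 1.87. In evm.model.supercontig_198.20 they had 484 and 480 CPM, against 291 and 295 CPM at 1–6 mm, a ratio of 1.65. In the remaining 9 members the sizes overlapped. No cause of the size pattern was tested.

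Most of the stamen genes listed ran the other way between the sexes. A list of 10 stamen, tapetum and male meiocyte genes, a selection from the study's tables made with their results known, summed to 310 to 379 CPM in female libraries and 1363 to 2511 CPM in the others. Nearly all of the female sum came from PI and the 2 AP3 genes, which in Arabidopsis specify petals as well as stamens, while the other 7 genes did not exceed 1.62 CPM in any female library. Among these, TDF1 (a tapetum regulator in Arabidopsis) had 0 to 0.935 CPM in female buds, against 255 to 635 CPM in the others, and SPL/NZZ (an initiator of spore-forming cells) had 0 to 0.135 CPM, against 2.36 to 12.7 CPM. An exception was CpMS1, with 0 to 0.135 CPM in female buds and 0.135 and 0 CPM in hermaphrodite buds of 1–6 mm. It had 6.52 to 215 CPM in male buds and 171 and 181 CPM in hermaphrodite buds of 7–12 mm. CpMMD1 was low in all libraries, with 0 to 0.138 CPM in female and 0.157 to 3.24 CPM in other buds. DYT had 0.0688 to 0.135 CPM in female buds and only 0.612 and 0.619 CPM in hermaphrodite buds of 7–12 mm. The selection left out 5 genes of the study's table of anther regulators, of which CLV1 was lower in every female library (6.05 to 8.73 CPM, against 11.2 to 20.19 CPM in the others) and SEP3 overlapped. Of 3 genes of tapetal cell fate, RPK2 had 111 to 147 CPM in female libraries, against 52.7 to 80.6 CPM in the others, so it was higher in every female library. EMS1/EXS had 23.3 to 55.8 CPM in female and 10.9 to 50.81 CPM in other libraries, and TPD1 had 4.85 to 9.22 CPM in female and 1.89 to 12.1 CPM in other libraries, so both overlapped. A gene that the study describes as CRABS CLAW/HMG-box domain is called CRABS CLAW here, after a carpel marker of Arabidopsis. It was found in all buds, with 32.2 to 70.2 CPM in female, 25.7 to 41.7 CPM in male and 24.7 to 27.5 CPM in hermaphrodite libraries. CPM are shares of a library, and the part that absent stamen transcripts have in the members' excess was not tested. The median log2 fold change of all 19339 genes in the fit was -0.05 to -0.0064 in the 4 comparisons of females with males or hermaphrodites. The fit's normalization centres the bulk of genes in advance, so these medians cannot show that part.

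More genes of a carpel and ovule list outside the members were called over 2-fold higher in females at 7–12 mm than at 1–6 mm. The difference between sizes was not tested, and the list includes general floral organ genes. The list held 7 genes from the study's tables: CRABS CLAW, both copies of ANT (an organ growth regulator needed for ovules in Arabidopsis), its relatives AIL1 and AIL5, auxin response factor 3 (which patterns the Arabidopsis pistil) and APETALA 2 (a floral organ identity gene). It was drawn from genes that the study picked on these samples, so its direction is not independent evidence. Genes were called changed at a Benjamini-Hochberg adjusted p under 0.05 by edgeR's quasi-likelihood test and a fold change over 2. Higher calls in females were 4 of 7 against males at 7–12 mm (7.69% of all genes), 1 of 7 against males at 1–6 mm (6.95%), 4 of 7 against hermaphrodites at 7–12 mm (7.53%) and 1 of 7 against hermaphrodites at 1–6 mm (6.52%). None of the 7 was called lower in females, against 8.79, 5.86, 7.74 and 5.15% of all genes in the same order. Without the fold limit, CRABS CLAW was also higher in females than in males at 7–12 and 1–6 mm (adjusted p = 0.0388 and 0.0119, edgeR). So were CRABS CLAW against hermaphrodites and AIL5 against males at 1–6 mm (adjusted p = 0.0203 and 0.00518). In the other direction, AIL5 (-0.39 ± 0.119, adjusted p = 0.0355, edgeR) and APETALA 2 (-0.54 ± 0.156, adjusted p = 0.0304) were lower in females than in hermaphrodites at 1–6 mm. AIL1 rose in females in all 4 comparisons, with 15.5 and 10.9 CPM in female buds of 7–12 mm and 10.1 and 10.8 CPM in female buds of 1–6 mm, against 0.867 to 4.71 CPM in the other 8 libraries, which is above every male and hermaphrodite library. Its log2 fold change at 7–12 mm was 2.77 ± 0.378 (SE) against males and 3.52 ± 0.392 against hermaphrodites. The list's median log2 fold change was 1.34 and 0.58 against males, and 1.17 and 0.57 against hermaphrodites, at 7–12 and 1–6 mm. Its sum at 7–12 mm was 410 and 355 CPM in female, 206 and 206 CPM in male and 277 and 285 CPM in hermaphrodite buds. At 1–6 mm the sums overlapped, with 292 and 357 CPM in female, 301 and 306 CPM in male and 394 and 343 CPM in hermaphrodite buds. The counts at 1–6 mm were 2 against males without female replicate 1, 2 against hermaphrodites without hermaphrodite replicate 1 and 0 without hermaphrodite replicate 2, and at 7–12 mm 2 against hermaphrodites without female replicate 1.

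Structure was not used by the rule. The coding models of the members had 237 to 1966 bases and a median of 696, against a median of 989 among genes at the rule's female minimum, and 31 members (44.9%) were under 600 bases, against 25.7% of those genes. A single exon was annotated in 29 members (42.0%), against 16.4%. Much of this came from the 20 members in the runs of neighbours described next, of which 17 were under 600 bases and 14 had a single exon. Of the other 49 members 14 (28.6%) were under 600 bases, close to the share among those genes, and the median was 921 bases. A single exon was annotated in 15 of the 49 (30.6%), which is still above the 16.4% of those genes. No untranslated regions belong to these models, so lengths are coding lengths. Neighbouring members share position and shape, so the 69 are not independent observations.

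Members lay on 44 sequences of the assembly, 11 of which held more than 1 member, and 20 members fell into 5 runs with gaps of at most 20000 bases, a definition chosen after the positions were seen. The longest run held 9 members within scf7180000007853:673092-727230. In order these were evm.model.supercontig_81.28, evm.model.supercontig_81.30, evm.model.supercontig_81.37, evm.model.supercontig_81.39, evm.model.supercontig_81.41, evm.model.supercontig_81.43, evm.model.supercontig_81.44, evm.model.supercontig_81.45 and evm.model.supercontig_81.48. All 9 had a single exon, 8 of them with 459 to 465 coding bases and evm.model.supercontig_81.39 with 237, and 7 were on the plus strand. Summed over the run, female buds had 1287 and 1480 CPM at 7–12 mm and 2002 and 1970 CPM at 1–6 mm, against 126.6 to 170 CPM in male and 88.6 to 119 CPM in hermaphrodite libraries. The run alone thus made up 8.32 to 8.92% of the members' sum in female libraries.

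Within that run the female level differed by 9.27 times between genes once set per kb, being lowest in evm.model.supercontig_81.48 at 82.0 CPM per kb and highest in evm.model.supercontig_81.43 at 761 CPM per kb. The excess differed too. In evm.model.supercontig_81.30 female buds had 66.8 and 85.6 CPM at 7–12 mm and 94.3 and 103 CPM at 1–6 mm, against 0.887, 1.63 and 2.88 CPM in the other libraries. In evm.model.supercontig_81.43 they had 243 and 301 CPM at 7–12 mm and 459 and 412 CPM at 1–6 mm, against 31.7 to 49.8 CPM in the others. By the rule's ratio these genes stood at 19.9 and 4.83. The sequences were not used here, and a read that aligned to several places was counted at each, so how far near-identical copies share counts within the run was not tested.

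The run also held 13 models that are not members. Among them evm.model.supercontig_81.36, on the same strand as most of the run and with 461 coding bases, had 8.53 and 9.82 CPM in female buds of 7–12 mm and 9.67 and 11.1 CPM in female buds of 1–6 mm, against 5.45 to 43.7 CPM in the others, and was highest in male buds of 7–12 mm. On the minus strand, evm.model.supercontig_81.38 had 0 and 82.1 CPM in female buds of 7–12 mm and 0.0658 and 101 CPM in female buds of 1–6 mm (replicates 1 and 2), against 0 CPM in all replicate 1 libraries and 4.65 to 12.4 CPM in the replicate 2 libraries of the other sexes. All but 1 of its counts were in replicate 2, the paired-end batch, and what part the strand setting had in this was not tested. Both non-member models are named after their values were seen.

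The second run held 5 consecutive models on the minus strand within scf7180000007875:131354-148366, with 239 to 273 coding bases. In order they were evm.model.supercontig_12.28, evm.model.supercontig_12.27, evm.model.supercontig_12.26, evm.model.supercontig_12.25 and evm.model.supercontig_12.24. Their sum was 267 and 413 CPM in female buds of 7–12 mm and 422 and 460 CPM in female buds of 1–6 mm, against 24.6 to 41.7 CPM in male and 28.1 to 40.7 CPM in hermaphrodite libraries. In the middle of the run, evm.model.supercontig_12.26 had 8.87 and 30.7 CPM in female buds of 7–12 mm and 20.8 and 20.22 CPM in female buds of 1–6 mm, against at most 1.03 CPM in the others. At its end, evm.model.supercontig_12.24 had 139 and 172 CPM in female buds of 7–12 mm and 162 and 184 CPM in female buds of 1–6 mm, against 11.6, 18.9 and 35.2 CPM in the others. Neighbouring genes of a run could thus differ several times in level while sharing the direction that chose them.

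**Figure D3:**
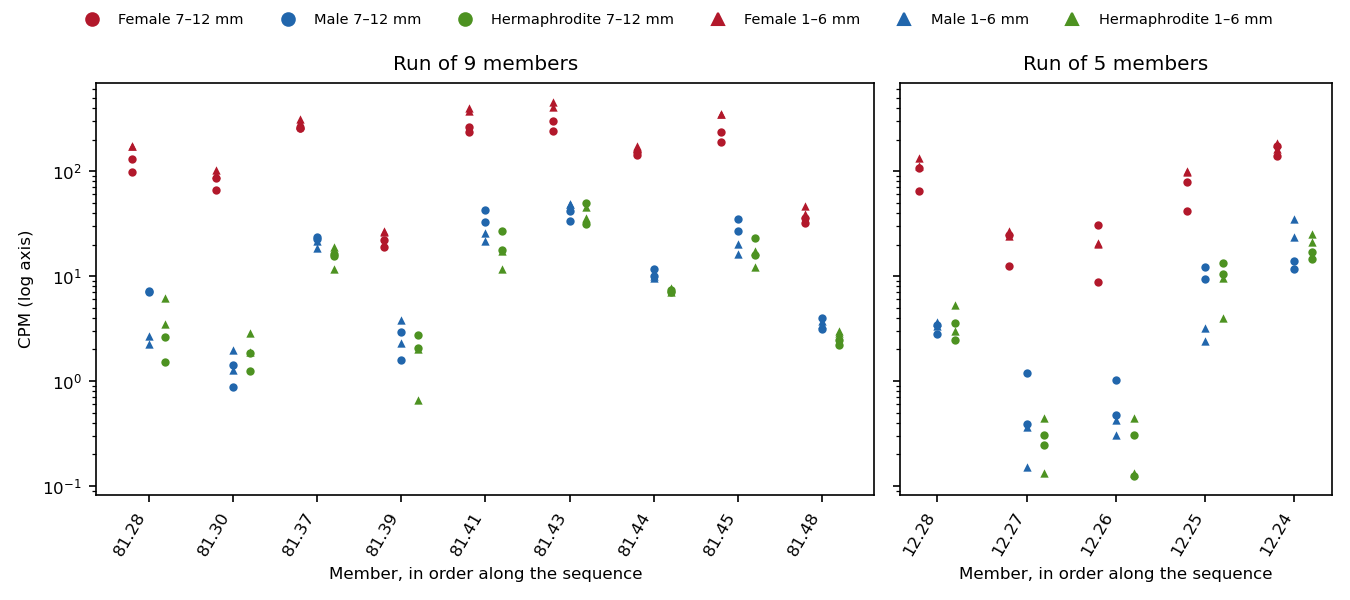
CPM (log axis) of the members of the runs of 9 and of 5, in order along their sequences, with circles for 7–12 mm and triangles for 1–6 mm libraries, and female (left), male (middle) and hermaphrodite (right) libraries beside each other. Female values lie above all others in each gene, and the level changes from gene to gene. The 9 summed to 1287 to 2002 CPM in females, against 88.6 to 170 CPM in the others.

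The other 3 runs were pairs. In the first, evm.model.supercontig_49.68 stood beside evm.model.supercontig_49.67 on the opposite strand (scf7180000007817:658798-660075), which had 256 and 343 CPM in female buds of 7–12 mm and 242 and 270 CPM in female buds of 1–6 mm, against 30.7, 41.4 and 49.1 CPM in the others. The 2 neighbours differed in size pattern, since both 7–12 mm values of evm.model.supercontig_49.68 lay below its 1–6 mm values while those of evm.model.supercontig_49.67 overlapped. In the second pair, evm.model.supercontig_126.51 had 445.1 and 399 CPM in female buds of 7–12 mm and 659 and 547 CPM in female buds of 1–6 mm, against 54.0 to 91.2 CPM elsewhere. Its neighbour evm.model.supercontig_126.52 had 67.6 to 97.4 CPM in females, against 8.64 to 19.0 CPM. The third pair was evm.model.supercontig_77.108 and evm.model.supercontig_25.210.

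Comparisons between male and hermaphrodite buds, and between sizes within each of these sexes, were not used to choose the members and could be tested. The rule did cap the highest male or hermaphrodite value of each member. This limits the levels and changes possible here and does not hold for all genes tested. All 69 members passed the low-count filter of the fit, which they could do through the female libraries alone, and 65 to 68 had at least 10 counts in the libraries of each comparison. Of the 69, 7 did not pass when the filter used male and hermaphrodite libraries alone, and they remain in the shares of all 5 comparisons below. Each call between 2 groups rests on 2 libraries against 2, with the spread pooled over the 6 groups. A call on the difference of size changes rests on the 2 libraries of every male and hermaphrodite group. The 5 comparisons gave 33 calls, spread over 22 members.

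**Figure D4:**
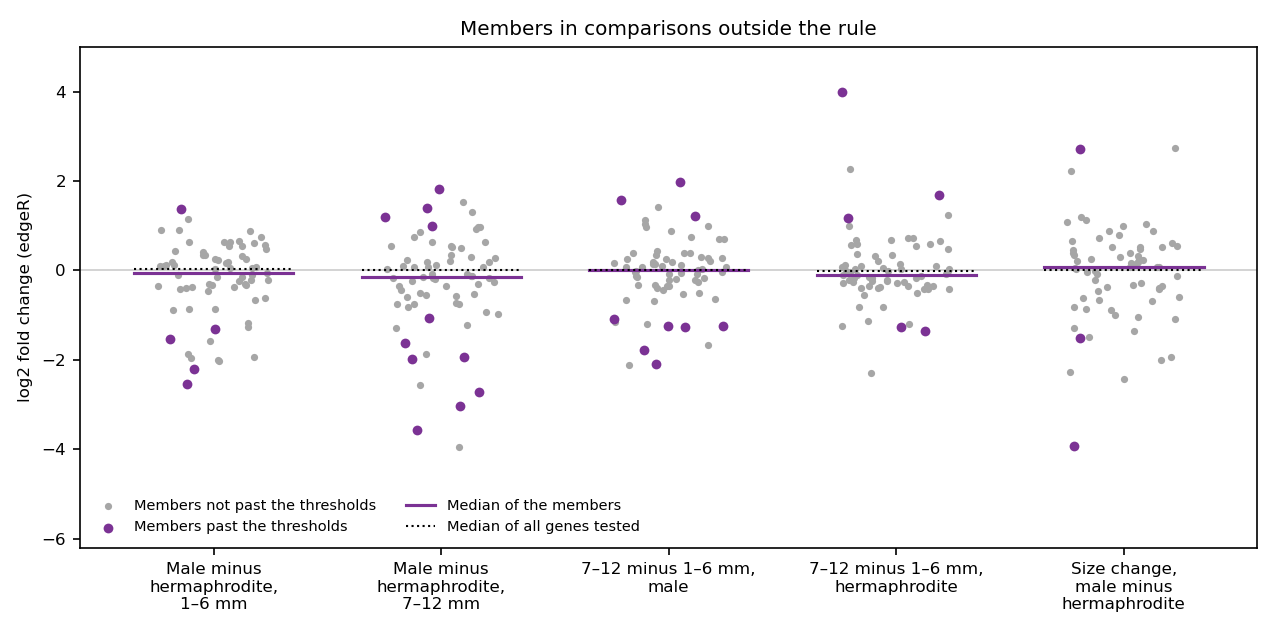
log2 fold change of each member (points) in the 5 comparisons outside the rule, with the members past the thresholds in purple, the median of the members as a full line and that of all 19339 genes tested as a dotted line. The members' medians lie between -0.14 and 0.08, and single members reach -3.93 and 3.997 past the thresholds.

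Between male and hermaphrodite buds of 1–6 mm, 5 of 69 members were called (7.25%, against 4.59% of all genes tested), 1 higher in males (2.34% of all genes) and 4 lower (2.25%). With the low-count filter set on male and hermaphrodite libraries alone, which 62 members passed, 4 were called. The gene evm.model.supercontig_21.63, which is among the 4 lower calls above, did not pass that filter. The members' median log2 fold change was -0.07, against 0.02 over all genes. At 7–12 mm 11 members were called (15.9%, against 8.58%), 4 higher in males (4.28%) and 7 lower (4.30%), with a median of -0.14, against 0.02. All 16 calls had the same direction in both replicates. Leaving out single libraries gave 2 to 5 calls at 1–6 mm and 6 to 13 at 7–12 mm. At 1–6 mm there were 2 calls without male replicate 1 and 3 without any other single library of that size. Without both male and hermaphrodite replicate 2 of 1–6 mm, the libraries in doubt because their shares of unaligned reads were the highest, there was 1. At 7–12 mm there were 6 calls without hermaphrodite replicate 1 and 7 without male replicate 2.

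The gene evm.model.supercontig_177.1 (scf7180000008723:316181-317715, plus strand, 4 exons), singled out after its values were seen, was lower in males at both sizes. It had 5.43 and 4.28 CPM in male buds of 7–12 mm, against 18.42 and 18.3 CPM in hermaphrodite buds, and 8.39 and 8.04 CPM in male buds of 1–6 mm, against 18.6 and 19.9 CPM in hermaphrodite buds. Male and hermaphrodite libraries did not overlap, and the log2 fold changes were -1.93 ± 0.161 (SE, adjusted p = 6.84e-05, edgeR) and -1.31 ± 0.155 (adjusted p = 0.000763). Both calls held when any single library was left out. Female buds, with 79.8 to 110 CPM, stood above both.

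The same direction was seen at both sizes in evm.model.supercontig_49.68, the second most abundant member. Male buds had 23.2 and 22.5 CPM at 7–12 mm, against 119.98 and 54.6 CPM in hermaphrodite buds, a log2 fold change of -1.98 ± 0.342 (adjusted p = 0.00450, edgeR). At 1–6 mm they had 22.8 and 28.1 CPM, against 94.8 and 122 CPM, a change of -2.20 ± 0.344 (adjusted p = 0.00466), and this call was lost without male replicate 1 of that size (adjusted p = 0.0575). Male libraries varied little, and every hermaphrodite library lay above them. Its neighbour evm.model.supercontig_49.67 was called in neither comparison.

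Among the members called, the largest falls in males at 7–12 mm were in evm.model.supercontig_19.96, evm.model.supercontig_115.28 and evm.model.supercontig_7.12. In evm.model.supercontig_115.28 (scf7180000007922:82616-84390, minus strand, 2 exons) male buds had 1.81 and 1.92 CPM, against 17.9 and 11.52 CPM in hermaphrodite buds, a log2 fold change of -3.04 ± 0.331 (adjusted p = 0.000330, edgeR). In evm.model.supercontig_19.96 male buds had 0.708 and 0.443 CPM, against 10.7 and 3.10 CPM, so that the hermaphrodite replicates differed by over 3 times. The change in evm.model.supercontig_7.12, -2.72 ± 0.645, rests on 0.157 and 0.296 CPM in male buds, against 2.02 and 0.619 CPM in hermaphrodite buds. The calls of both evm.model.supercontig_19.96 and evm.model.supercontig_7.12 were lost when male replicate 1, male replicate 2 or hermaphrodite replicate 1 of 7–12 mm was left out, with adjusted p up to 0.137 and 0.325. At 1–6 mm, evm.model.supercontig_120.23 was lower in males (-1.54 ± 0.310). The call of evm.model.supercontig_21.63 (-2.54 ± 0.626) rests on too few counts to read, since it passed the low-count filter through the female libraries alone. Its values were 0.241 and 0 CPM in male buds (4 and 0 counts), against 0.942 and 0.885 CPM in hermaphrodite buds (14 and 4 counts), and the call was lost when any 1 of 5 libraries was left out. For evm.model.supercontig_120.23 they were 15.7 and 17.4 CPM in male buds, against 39.5 and 50.4 CPM, and the call was lost without male replicate 1, male replicate 2 or hermaphrodite replicate 2 of that size.

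Higher in males at 7–12 mm were evm.model.supercontig_81.28, evm.model.supercontig_52.116, evm.model.supercontig_3.323 and, at the fold limit itself, evm.model.supercontig_77.108. In evm.model.supercontig_81.28, from the run of 9, male buds had 7.01 and 7.24 CPM, against 1.53 and 2.60 CPM in hermaphrodite buds, a log2 fold change of 1.83 ± 0.318 (adjusted p = 0.00358, edgeR), which was lost without hermaphrodite replicate 1 of that size (adjusted p = 0.0515). In evm.model.supercontig_3.323 male buds had 65.5 and 91.9 CPM, against 27.7 and 39.1 CPM, a change of 1.21 ± 0.192 (adjusted p = 0.00208). It fell to 0.91 without hermaphrodite replicate 1, and was also under the limit without male replicate 2. The call of evm.model.supercontig_52.116 was lost without replicate 2 of either sex. The change of evm.model.supercontig_77.108 was 1.00, and 0.999 once replicates were blocked, which is no longer a call. It was also lost when any 1 of 10 libraries was left out. At 1–6 mm evm.model.supercontig_3.147 had 30.8 and 15.9 CPM in male buds, against 8.88 and 8.41 CPM in hermaphrodite buds (1.37 ± 0.352, adjusted p = 0.0416), a call lost with the block (adjusted p = 0.0624) and when any 1 of 7 libraries was left out.

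Within males, 9 of 69 members changed with bud size (13.0%, against 5.69% of all genes tested), 3 higher at 7–12 mm (2.92%) and 6 lower (2.77%). The members' median log2 fold change was 0.01, against 0.0064 over all genes. Among the members called, the largest fall was in evm.model.supercontig_145.23, with 0.551 and 0.591 CPM at 7–12 mm against 2.48 and 2.88 CPM at 1–6 mm (-2.10 ± 0.338, adjusted p = 0.00376, edgeR). The fall with the smallest p was in evm.model.supercontig_5.104 (scf7180000007632:357025-358455, plus strand, 1 exon), with 28.6 and 34.1 CPM at 7–12 mm against 74.3 and 85.4 CPM at 1–6 mm (-1.24 ± 0.150, adjusted p = 0.000885). Sizes did not overlap in either gene, and both calls held without any single library. Both genes were also lower in male than in hermaphrodite buds of 7–12 mm (-1.62 ± 0.343 and -1.06 ± 0.149), comparisons that share the male libraries of that size, and these calls were lost without male replicate 1 or hermaphrodite replicate 1 of 7–12 mm.

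The run of 5 held changes in both directions within males. In evm.model.supercontig_12.25 male buds had 9.37 and 12.3 CPM at 7–12 mm against 3.20 and 2.43 CPM at 1–6 mm (1.99 ± 0.488, adjusted p = 0.0364, edgeR), while the next model, evm.model.supercontig_12.24, had 11.6 and 13.89 CPM at 7–12 mm against 23.5 and 35.2 CPM at 1–6 mm (-1.09 ± 0.219, adjusted p = 0.0111). The call of evm.model.supercontig_12.25 was lost when any 1 of 8 libraries was left out (adjusted p up to 0.189). That of evm.model.supercontig_12.24 was lost without male 1–6 mm replicate 2 or male 7–12 mm replicate 1 (up to 0.0892). In evm.model.supercontig_81.28 male buds had 7.01 and 7.24 CPM at 7–12 mm against 2.72 and 2.28 CPM at 1–6 mm (1.58 ± 0.308, adjusted p = 0.01005), a call lost when any 1 of the 4 male libraries was left out. The calls of evm.model.supercontig_602.2 (1.23 ± 0.327), evm.model.supercontig_3.514 (-1.78 ± 0.448) and evm.model.supercontig_282.15 (-1.26 ± 0.341) were each lost when any 1 of 10 libraries was left out, and that of evm.model.supercontig_602.2 also with the block (adjusted p = 0.0693). Without single libraries the count in males was 2 to 8, with 2 when male 1–6 mm replicate 2 or male 7–12 mm replicate 1 was left out. It was 3 without male 1–6 mm replicate 1 or both libraries in doubt, 4 without male 7–12 mm replicate 2 and 5 without either female library of 1–6 mm.

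Within hermaphrodites, 5 members changed with bud size (7.25%, against 3.05% of all genes tested), 3 higher at 7–12 mm (2.07%) and 2 lower (0.972%), with a median of -0.10, against -0.0031 over all genes. The largest change was in evm.model.supercontig_115.28, with 17.9 and 11.52 CPM at 7–12 mm against 1.08 and 0.664 CPM at 1–6 mm (3.997 ± 0.376, adjusted p = 0.000819, edgeR). In evm.model.supercontig_140.49 hermaphrodite buds had 9.54 and 10.4 CPM at 7–12 mm against 4.51 and 4.65 CPM at 1–6 mm (1.18 ± 0.162, adjusted p = 0.00359), a call lost without hermaphrodite 1–6 mm replicate 1 (adjusted p = 0.0871). Both genes had higher values at 7–12 mm in each replicate. Lower at 7–12 mm were evm.model.supercontig_89.41, with 33.22 and 27.9 CPM against 76.6 and 85.6 CPM at 1–6 mm (-1.36 ± 0.188, adjusted p = 0.00370), and evm.model.supercontig_3.323, with 27.7 and 39.1 CPM against 80.4 and 83.6 CPM (-1.26 ± 0.192, adjusted p = 0.00622), and both calls held without any single library. The rise of evm.model.supercontig_3.147, 1.69 ± 0.352, was lost with the block (adjusted p = 0.0511) and when any 1 of 5 libraries was left out. The count was 3 to 6 without single libraries, with 3 when hermaphrodite 1–6 mm replicate 1 was left out, and 3 without both libraries in doubt.

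The size change differed between males and hermaphrodites in 3 members (4.35%, against 0.512% of all genes tested), more positive in males in 1 (0.248%) and more negative in 2 (0.264%). In evm.model.supercontig_115.28 male buds had 1.81 and 1.92 CPM at 7–12 mm and 1.87 and 1.97 CPM at 1–6 mm, while hermaphrodite buds had 17.9 and 11.52 CPM at 7–12 mm and 1.08 and 0.664 CPM at 1–6 mm, and the log2 size changes differed by -3.93 ± 0.575 (males minus hermaphrodites, adjusted p = 0.0277, edgeR). In evm.model.supercontig_81.28 the size change of males exceeded that of hermaphrodites by 2.71 ± 0.461 (adjusted p = 0.0429), with hermaphrodites at 1.53 and 2.60 CPM at 7–12 mm and 3.4995 and 6.194 CPM at 1–6 mm. In evm.model.supercontig_140.49 the difference was -1.51 ± 0.228 (adjusted p = 0.0278), with male buds at 5.51 and 5.02 CPM at 7–12 mm and 8.15 and 5.92 CPM at 1–6 mm. All 3 had over 69 CPM in every female library. The 3 calls were lost when any 1 of 7 libraries (evm.model.supercontig_115.28), 9 libraries (evm.model.supercontig_81.28) or 8 libraries (evm.model.supercontig_140.49) was left out. The count was 1 without either female library of 1–6 mm, male 1–6 mm replicate 2 or male 7–12 mm replicate 2, and no member was called without male 1–6 mm replicate 1, male 7–12 mm replicate 1, either hermaphrodite library of 1–6 mm, hermaphrodite 7–12 mm replicate 1 or both libraries in doubt.

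**Figure D5:**
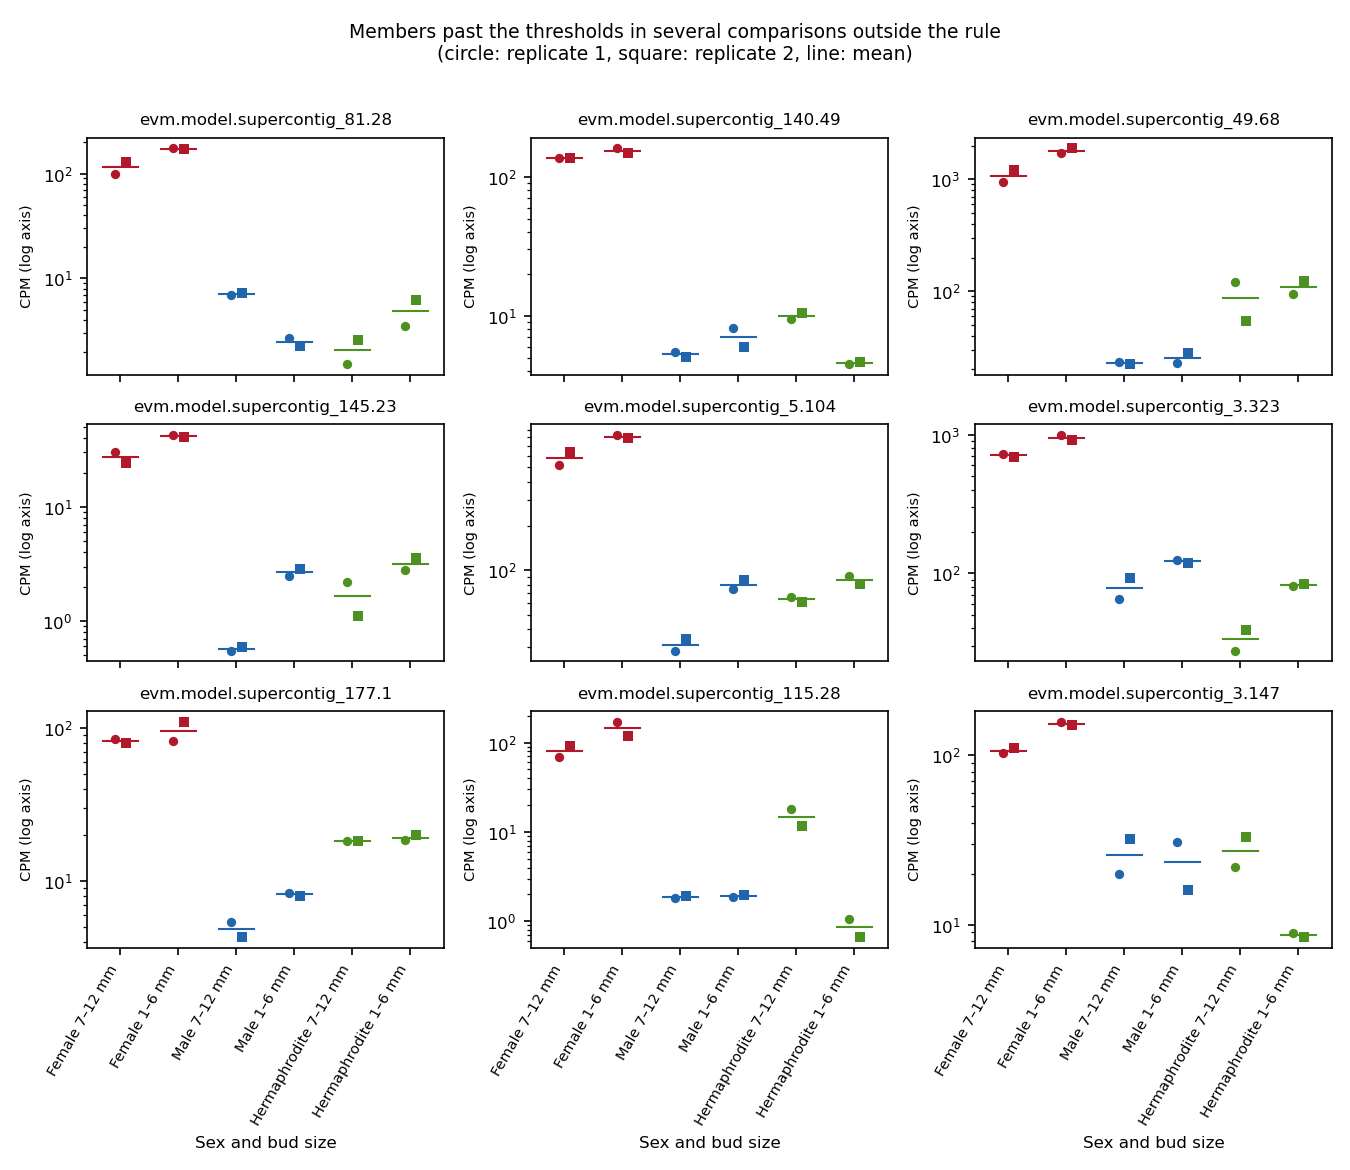
CPM (log axis) by sex and bud size of the 9 members past the thresholds in 2 or 3 of the comparisons outside the rule, a set chosen after the calls were seen, with circles for replicate 1, squares for replicate 2 and lines for the means. In evm.model.supercontig_115.28 hermaphrodite buds of 7–12 mm (17.9 and 11.52 CPM) stand above those of 1–6 mm and above male buds, and in evm.model.supercontig_177.1 hermaphrodite buds stand above male buds at both sizes.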

How the data were processed

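Counts came from 12 libraries of papaya flower buds. The deposited values are raw read counts of each gene. The authors used FastQC (0.11.5) for read quality, Trimmomatic (0.36) for trimming and HISAT2 (2.0.5) for alignment to a PacBio assembly, handled the alignments with SAMtools (1.3.1) and obtained counts per gene from featureCounts (1.5.2). According to the headers, 1 reverse-strand setting served all libraries, mates of a pair were counted separately, and a read aligned to several places was counted at each. The authors built the gene models by mapping coding sequences with GMAP.

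CPM are counts over the library total. Counts were tested in R 4.3.3 with edgeR 4.0.16 (TMM, filterByExpr on the 6 groups with a minimum count of 10, 19339 genes, robust quasi-likelihood fit of 1 coefficient per group, Benjamini-Hochberg adjustment over all genes). Calls needed an adjusted p under 0.05 and a change of over 2-fold. Standard errors were derived from the log2 fold change and its F statistic. The fit was also run on simulated counts, for the size comparison in males alone. Those counts held no replicate effect, so that run does not test the calls given above. Library totals were 12704714 to 16564137 in replicate 1 and 4520811 to 8554135 in replicate 2.

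The members and lists were chosen with earlier results of these data known. Named genes are those with the 8 largest ratios, the 5 highest female means, the 3 just inside and outside the threshold, up to 3 calls in each direction with the largest change in each comparison, and up to 6 with a member as the next model. Others named were chosen after their values were seen. Same-numbered replicates share a sequencing platform, per the methods, and deviations from group means correlated between groups (r = 0.734 to 0.839, median 0.782, 15 pairs). The number therefore entered as a block in an alternative fit. The other alternatives were RLE size factors, other low-count filters, DESeq2 1.42.0, no fold limit, the libraries of a comparison alone, leaving out each library, leaving out the 2 libraries in doubt, and other settings of the rule.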

Additional observations from a re-analysis of the deposited data

Results flagged for a closer look

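The size change of evm.model.supercontig_115.28 differed between males and hermaphrodites by -3.93 on the log2 scale, by the test of that difference itself. By the same test evm.model.supercontig_81.28 differed by 2.71 and evm.model.supercontig_140.49 by -1.51. Cultivar and sex cannot be told apart in these differences. Of the 3, all kept their sign when any 1 library was left out and none kept its call without every single library.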

How the results depend on the processing

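Leaving out single libraries gave 69 to 108 members, 2 to 5 calls between males and hermaphrodites at 1–6 mm, 6 to 13 at 7–12 mm, 2 to 8 with size in males, 3 to 6 with size in hermaphrodites and 0 to 3 for the difference of size changes, where a lone library of a group is assumed to vary like the other groups. The 108 came without female 7–12 mm replicate 1. For the carpel and ovule list the ranges were 1 to 2 and 4 to 4 against males at 1–6 and 7–12 mm, and 0 to 2 and 2 to 4 against hermaphrodites. A ratio of at least 2 gave 143 members and of at least 4 gave 45. The rule on replicate 2 alone gave 142, which held all 69, and on replicate 1 alone 86, which held 68. With fewer libraries, left out singly or by replicate, the ratio can only loosen, so the members were bound to meet it. The size clause can tighten. In replicate 1 alone it dropped evm.model.supercontig_7.12, with 46.0 CPM in female buds of 7–12 mm against 17.9 CPM at 1–6 mm. With the replicate block the calls in the same order were 4, 11, 8, 6 and 4, and the block ended the calls of evm.model.supercontig_3.147 (both), evm.model.supercontig_602.2 and evm.model.supercontig_77.108 and no other call of a member. It added evm.model.supercontig_19.267 between males and hermaphrodites at 7–12 mm (-1.03, adjusted p = 0.00960, edgeR). With size in hermaphrodites it added evm.model.supercontig_21.63 (adjusted p = 0.0349) and evm.model.supercontig_81.28 (0.0406). For the difference of size changes it added evm.model.supercontig_89.41 (0.0133). Without a fold limit the calls between males and hermaphrodites were 9 at 1–6 mm and 19 at 7–12 mm, and 3 genes of the list passed at 1–6 mm against males and 4 against hermaphrodites, 2 of these 4 lower in females. With the libraries of a comparison alone the 5 counts were 3, 5, 5, 5 and 0. Without the 2 libraries in doubt the counts were 1 at 1–6 mm, 3 with size in males, 3 with size in hermaphrodites and 0 for the difference, and 0 for the list against hermaphrodites at 1–6 mm. No named call changed direction under any alternative that gave it a value, and a filter on male and hermaphrodite libraries left 1 of them, and the libraries of a comparison alone 2, without a value. Of 33 calls of members, 9 held without every single library, and 19 members had under 10 counts in a male or hermaphrodite library, which limits what their changes there can show.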
